A study of Mus musculus with 12 samples.

Results

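The BCL2 family sets whether a cell under stress keeps its mitochondria intact, and 10 of its genes were followed here in day 3 T follicular helper (Tfh) cells labelled as carrying either 1 floxed *Bcl6* allele with Cre or Cre alone. The genes were taken by symbol from a count table of 24561 genes. They comprise 4 anti-apoptotic genes (*Bcl2*, *Bcl2l1*, *Mcl1* and *Bcl2a1b*), 2 effectors (*Bax* and *Bak1*) and 4 BH3-only genes (*Bcl2l11*, *Bid*, *Bbc3* and *Pmaip1*). Effector proteins open the outer mitochondrial membrane and release cytochrome c, anti-apoptotic proteins hold them in check, and BH3-only proteins bind the anti-apoptotic proteins or engage the effectors directly. In T cells the balance of BCL2, BCL-XL (the *Bcl2l1* product) and MCL1 against BIM (the *Bcl2l11* product) is a known determinant of survival during and after a response.

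RNA was sequenced from C57BL/6 OT-II CD4 T cells, which carry a transgenic receptor for ovalbumin. The cells were transferred into Sap-/- hosts, whose own T cells do not give sustained help to B cells, and CXCR5hiPD-1hi Tfh cells were sorted from lymph nodes 3 days after NP-OVA immunization. One group was labelled CD4-CrexBcl6fl/+ (HET), a genotype in which Cre driven by *Cd4* is designed to delete 1 floxed *Bcl6* allele in T cells, and the other CD4-Cre (WT), so that both groups carried the Cre transgene. Each group held 3 mice. Every mouse gave 2 libraries, technical repeats made from about 200 cells, so that there were 12 in all. Library totals ranged from 3343375 to 8315722 counts in HET and from 5240715 to 7266106 in WT.

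The *Bcl6* transcript was higher, not lower, in the libraries labelled HET. It stood at 149 ± 2.18 normalized CPM (counts scaled to the library's size; SD, n = 3 mice) in the libraries labelled HET and at 62.4 ± 11.5 in those labelled WT, a log2 fold change of 1.25 (SE 0.12, edgeR adjusted p = 6.3e-07). Counts summed over the gene do not separate reads of the deleted part from the rest, so every direction below rests on the labels. The T and Tfh markers were present in all libraries, and 5 of 7 were called between the groups, *Cd4*, *Cxcr5*, *Pdcd1*, *Icos* and *Bcl6*. *Cxcr5*, the receptor used in the sort, ranged from 222 to 266 CPM in HET and from 292 to 340 in WT, and *Icos*, a costimulatory receptor, from 380 to 501 in HET and from 206 to 339 in WT. B cell markers summed to 468.6 to 809.7 CPM in HET and 590.4 to 988.8 in WT, most of it *Ighm*, and 0 of 11 were called. Myeloid markers summed to 12.5 to 65.18 CPM in HET and 3.993 to 12.52 in WT, with *Lyz2* called and *Cd14* at 0 in all 12 libraries. Their part in the results below was not tested. Less RNA per cell and fewer cells expressing a gene cannot be told apart in such bulk samples.

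The BH3 region is the short helix through which family members bind each other, and its coding sequence shows what the listed genes share. The 42 bases around its conserved leucine and its glycine or alanine followed by aspartate occurred once in the coding sequence of 8 of the 10 genes and of *Bmf*, a further BH3-only gene named below. The codons of these residues are in capitals, and each run is given 5′ to 3′ on the gene's strand (GRCm38).
Bcl2, chr1:106712572-106712613, minus strand: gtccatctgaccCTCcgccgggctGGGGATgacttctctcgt
Bcl2l1, chr2:152829694-152829735, minus strand: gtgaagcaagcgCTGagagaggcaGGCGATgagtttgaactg
Mcl1, chr3:95659424-95659465, plus strand: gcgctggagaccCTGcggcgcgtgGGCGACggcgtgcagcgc
Bax, chr7:45465994-45466035, minus strand: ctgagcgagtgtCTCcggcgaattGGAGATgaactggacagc
Bak1, chr17:27022528-27022569, minus strand: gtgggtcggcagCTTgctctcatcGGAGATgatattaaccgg
Bcl2l11, chr2:128147138-128147179, plus strand: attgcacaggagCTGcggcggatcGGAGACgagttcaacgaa
Bid, chr6:120897286-120897327, minus strand: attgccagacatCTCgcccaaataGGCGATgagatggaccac
Bbc3, chr7:16313761-16313802, plus strand: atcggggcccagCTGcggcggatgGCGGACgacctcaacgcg
Bmf, chr2:118545097-118545138, minus strand: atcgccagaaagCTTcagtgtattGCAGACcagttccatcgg
Glycine stood before the aspartate in 7 of these genes, and alanine in *Bbc3* and *Bmf*. The pattern had 0 matches in *Bcl2a1b*, and *Pmaip1* was not searched and is named only.

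Of the 10 genes, 1 was called between the groups as labelled. *Bcl2l1* was lower in HET, while 9 genes, *Bcl2* and *Mcl1* among them, did not pass the test. All 10 passed the filter on low counts, and 0 were called higher and 1 lower (edgeR quasi-likelihood test, adjusted p under 0.05 over all 12719 genes tested). Of all genes tested, 18.0% were called, 9.17% higher and 8.82% lower, so 1 called of 10 is no more than the share among all genes. The median log2 fold change of the 10 was 0.02, beside 0.01 over all genes, with 5 values above 0 and 5 below.

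**Figure D1:**
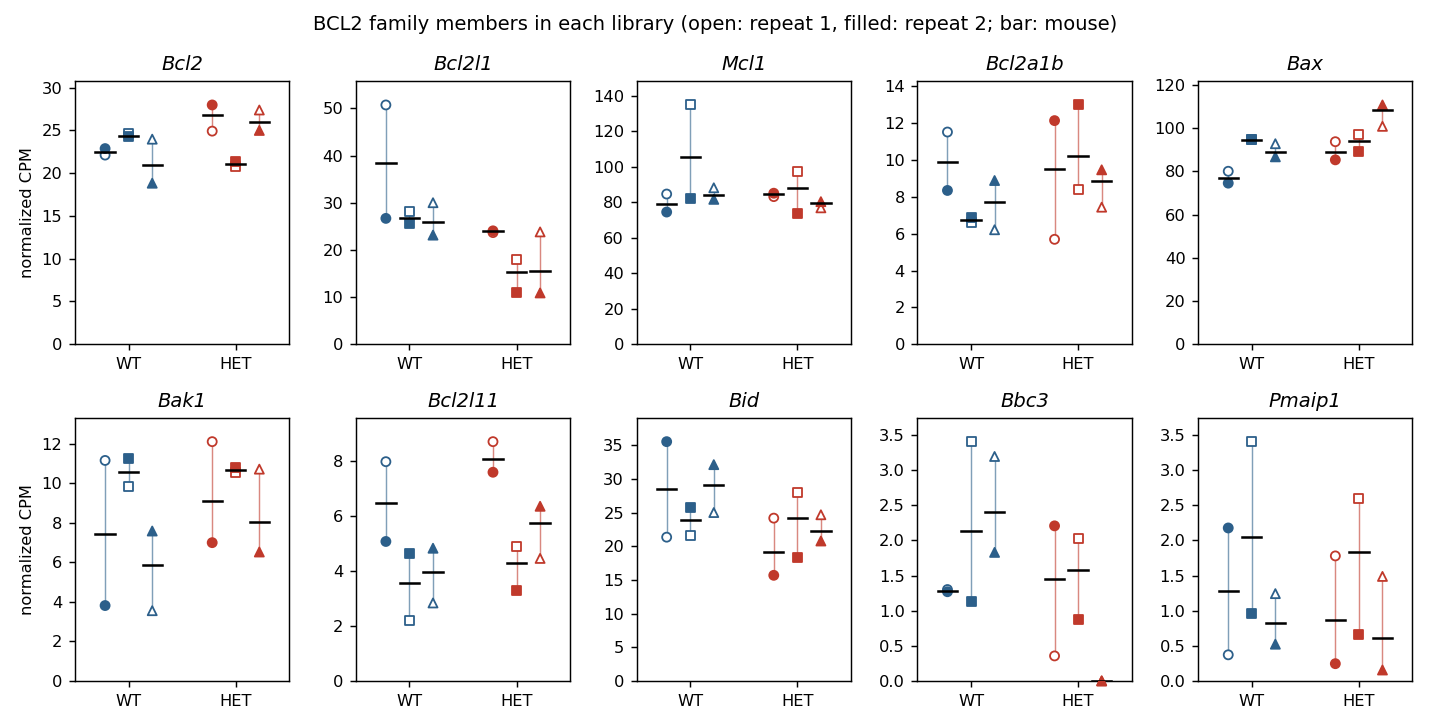
Normalized CPM (vertical axis, from 0) of each of the 10 genes in every library, WT in blue and HET in red; circles, squares and triangles are mice 1, 2 and 3, open symbols repeat 1, filled symbols repeat 2, and black bars the mouse with its repeats summed. The *Bcl2l1* bars of the HET mice lie between 15.2 and 23.95, below those of the WT mice from 25.98 to 38.46, and the bars of the other 9 genes overlap.

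Among the anti-apoptotic genes, *Bcl2l1* (chr2:152780668-152831728, minus strand) encodes BCL-XL, which is induced by T cell activation and costimulation. It stood at 23.95, 15.2 and 15.4 CPM in the 3 HET mice and at 38.46, 26.67 and 25.98 in the 3 WT mice. All HET mice were below all WT mice, as was the case, in either direction, for 34.4% of all genes tested. The means were 18.2 ± 4.99 and 30.4 ± 7.02 CPM (SD, n = 3 mice), a log2 fold change of -0.73 (SE 0.21, 95% interval -1.16 to -0.30, edgeR adjusted p = 0.0167). In the single libraries HET ranged from 10.87 to 24.04 CPM and WT from 23.13 to 50.73, so that the libraries overlapped slightly.

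The *Bcl2l1* call rested on few mice and was lost in some fits on fewer mice or libraries. Those fits also called fewer of all genes tested. The library of WT mouse 1 repeat 1, at 50.73 CPM, stood apart from the other 5 WT libraries, and without it the log2 fold change was -0.53 (adjusted p = 0.0842). Leaving out HET mouse 2, HET mouse 3 or WT mouse 1 also ended the call (edgeR adjusted p = 0.0797, 0.0712 and 0.125), as did either technical repeat alone (0.062 and 0.117). Over 22 alternative settings the value stayed between -0.99 and -0.53, and 14 of them called it. The SD of log2 CPM between repeats of a mouse was 0.47, beside 0.12 from counting alone at the mean of 143 counts per library.

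**Figure D2:**
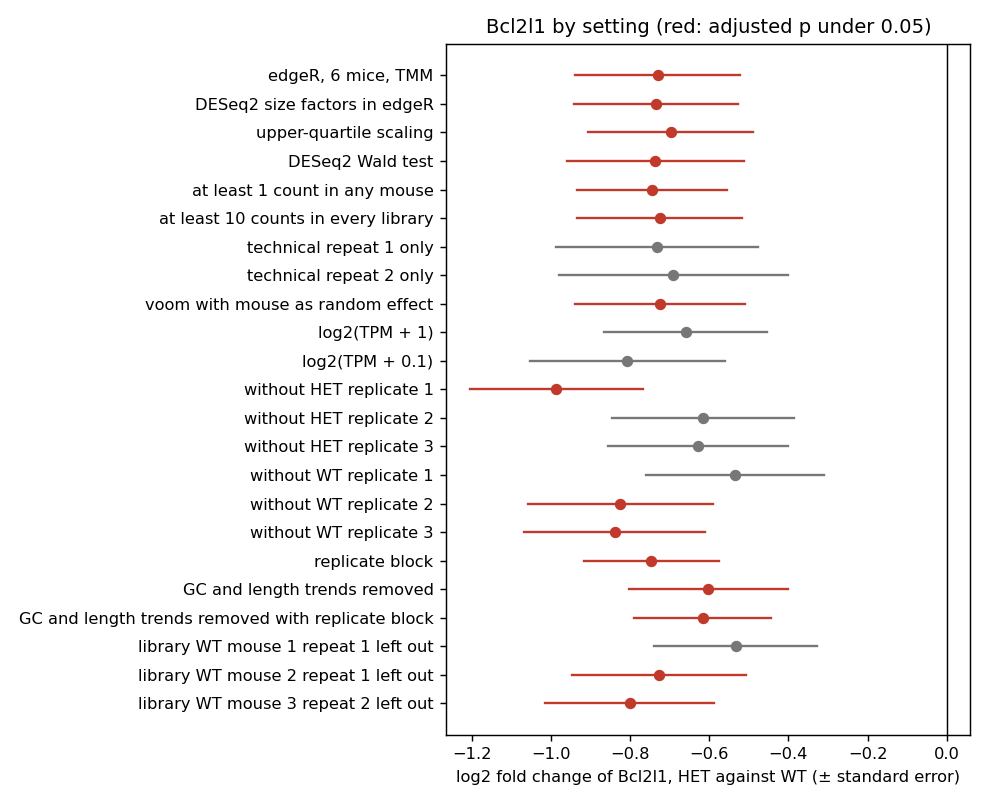
Log2 fold change of *Bcl2l1*, HET against WT (horizontal axis), with its standard error under each of 22 alternative settings and, in the top line, as reported; red marks an adjusted p under 0.05 and grey a larger one. Every value lies below 0, from -0.99 to -0.53, and 8 of the 22 alternatives are grey.

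*Bcl2* (chr1:106538178-106714274, minus strand), the founding survival gene of the family, stood at 26.8, 21.1 and 26.0 CPM in the HET mice and at 22.4, 24.35 and 20.95 in the WT mice. The groups overlapped. Its log2 fold change was 0.13 (SE 0.18, 95% interval -0.24 to 0.49, edgeR adjusted p = 0.684), and the SD of log2 CPM between repeats of a mouse was 0.12, as low as counting alone gives. *Mcl1*, whose short-lived protein T cells need continuously, stood at 84.4, 88.1 and 79.7 CPM in HET and 79.2, 105 and 84.1 in WT. Its log2 fold change was -0.09 (SE 0.12, 95% interval -0.34 to 0.16, edgeR adjusted p = 0.667). The highest WT mouse held 1 library at 134.7 CPM, and without that library the value was 0.03. The intervals of both genes exclude a change as large as the -0.73 of *Bcl2l1*. The interval of *Bcl2l1* itself, -1.16 to -0.30, overlaps that of *Mcl1*, and a difference between the genes was not tested.

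*Bcl2a1b* encodes a copy of A1, a survival protein induced by NF-κB, and its reads are hard to assign. It stood at 9.54, 10.2 and 8.84 CPM in the HET mice and at 9.89, 6.755 and 7.73 in the WT mice, a log2 fold change of 0.23 (SE 0.27, edgeR adjusted p = 0.602). The coding sequences of *Bcl2a1a*, *Bcl2a1b* and *Bcl2a1d*, 516 bases each, were 97.9% to 98.8% identical. Their first 60 coding bases are given as the 60-base stretch in which the copies differ most. It holds 6 of the 12 differing positions of the coding sequence, in capitals (GRCm38).
Bcl2a1a, chr9:88957051-88957110, plus strand: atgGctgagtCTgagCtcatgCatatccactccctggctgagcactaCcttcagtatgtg
Bcl2a1b, chr9:89199360-89199419, plus strand: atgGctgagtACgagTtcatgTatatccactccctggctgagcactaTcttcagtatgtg
Bcl2a1d, chr9:88731660-88731719, minus strand: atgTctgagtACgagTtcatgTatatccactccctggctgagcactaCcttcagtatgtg
Of the 50-base windows of the *Bcl2a1b* transcript, 79.2% occurred in another gene as well, and 49.1% of its exon bases lay in *Gm29094* on the same strand. Of the counts of the 3 copies, 81.4% were given to *Bcl2a1d*. Summed over the 3 copies the level was 42.9, 49.0 and 62.1 CPM in HET and 48.8, 57.15 and 54.4 in WT, and the groups overlapped.

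The effector genes were not called. *Bax* stood at 89.0, 94.3 and 108 CPM in the HET mice and 77.1, 94.7 and 89.1 in the WT mice, a log2 fold change of 0.16 (SE 0.12, 95% interval -0.08 to 0.40, edgeR adjusted p = 0.387). *Bak1* stood at 9.10, 10.7 and 8.02 CPM in HET and 7.42, 10.6 and 5.86 in WT, a log2 fold change of 0.22 (SE 0.28, edgeR adjusted p = 0.644). The mice of the groups overlapped for both. *Bax* varied little between repeats (SD of log2 CPM 0.08) and *Bak1* more (0.58). Of the exon bases of *Bax*, 12.2% lay in *Gm45808* on the same strand, and 25.5% of the *Bak1* exon bases overlap *Ggnbp1* on the opposite strand.

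The BH3-only genes were not called either. Except for *Bid*, with an interval about as wide as that of *Bcl2*, they had the fewest counts of the 10 genes and the widest intervals. *Bcl2l11* (BIM) stood at 8.08, 4.285 and 5.76 CPM in HET and 6.50, 3.555 and 3.98 in WT, a log2 fold change of 0.38 (SE 0.36, 95% interval -0.37 to 1.13, edgeR adjusted p = 0.526). *Bid*, cleaved by caspase-8 to link death receptors to mitochondria, stood at 19.2, 24.2 and 22.3 CPM in HET and 28.5, 23.9 and 29.1 in WT. Its log2 fold change was -0.31 (SE 0.18, 95% interval -0.68 to 0.05, edgeR adjusted p = 0.242), and 17.7% of its exon bases overlap *Bcl2l13* on the opposite strand. The repeats disagreed on *Bid*. With repeat 1 alone the value was 0.19, and with repeat 2 alone -0.77 (adjusted p = 0.0357), so that *Bid* was the 1 gene called in repeat 2, where *Bcl2l1* was not.

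*Bbc3* (PUMA) and *Pmaip1* (NOXA), which p53 induces, had the fewest counts of the 10 genes. *Bbc3* had 20, 18 and 0 counts in the HET mice and 14, 24 and 32 in the WT mice, a log2 fold change of -0.91 (SE 0.75, 95% interval -2.47 to 0.66, edgeR adjusted p = 0.453). Without HET mouse 3 the value was -0.36, and with voom -1.63. The 0 in HET mouse 3 allows up to 3 counts, or 0.308 CPM, by counting error only. *Pmaip1* had 12, 21 and 6 counts in HET and 14, 23 and 11 in WT, a log2 fold change of -0.31 (SE 0.68, 95% interval -1.71 to 1.099). Both intervals include a fall by 1 log2 unit. The SD of log2 CPM between mice was 0.862 for *Bbc3*, beside 0.34 from counting alone, and that between repeats was 1.02 for *Pmaip1*, beside 0.536.

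**Figure D3:**
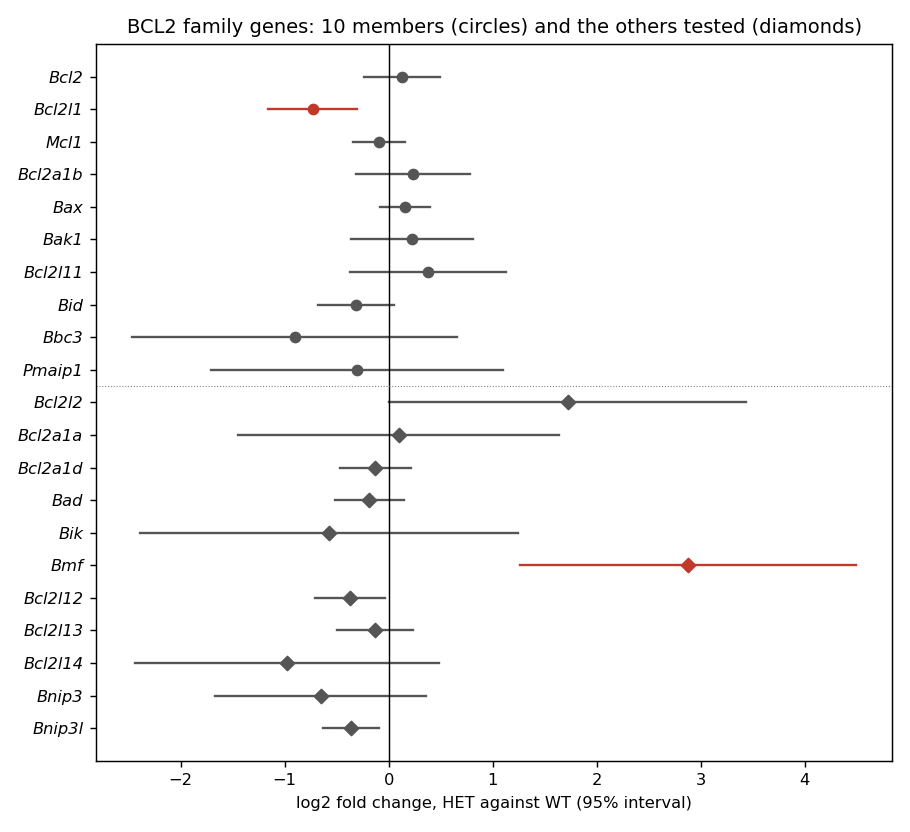
Log2 fold change, HET against WT (horizontal axis), with its 95% interval for the 10 genes (circles, above the dotted line) and the 11 other family genes tested (diamonds); red marks an adjusted p under 0.05. *Bcl2l1* at -0.73 and *Bmf* at 2.88 are the red ones, and *Bbc3*, *Pmaip1* and other genes of few counts have the widest intervals.

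Per kilobase of exon, the order of levels was much the same in both groups. In WT, *Bax* was highest at 55.2 ± 5.70 CPM per kb (SD, n = 3 mice), followed by *Mcl1* at 26.2 ± 4.05, *Bcl2a1b* at 9.95 ± 1.96, *Bid* at 7.65 ± 0.794 and *Bcl2l1* at 6.62 ± 1.53. *Bak1* at 3.30 ± 0.999 and *Bcl2* at 2.47 ± 0.187 came next, and *Bbc3*, *Bcl2l11* and *Pmaip1* were each under 1 on average. The mice overlapped between *Bid* and *Bcl2l1*, between *Bak1* and *Bcl2* and among the last 3 genes, so these neighbours were not separated. In HET, *Bcl2l1* stood at 3.97 ± 1.09 CPM per kb, below *Bid* at 6.17 ± 0.711 in every mouse and overlapping *Bak1* at 3.85 ± 0.553. Of the summed level of the 10 genes per kb, the anti-apoptotic genes held 37.0% ± 3.02 in HET and 39.9% ± 2.50 in WT (SD, n = 3 mice), and the BH3-only genes 6.72% ± 0.733 and 8.55% ± 1.01, ranges that overlapped. The effectors held 56.3% ± 3.46 in HET, from 53.7% to 60.2%, and 51.5% ± 2.92 in WT, from 48.1% to 53.3%, so that their shares did not overlap. These shares depend on which A1 copies are counted. With *Bcl2a1a* and *Bcl2a1d* added, a choice made after seeing the data, the anti-apoptotic genes held 55.45% ± 0.755 in HET and 58.95% ± 0.715 in WT and the effectors 39.8% ± 0.147 and 35.2% ± 1.09, neither overlapping between the groups, so that the largest class changed from effector to anti-apoptotic. The 3 shares sum to the whole and are not independent, and they were not tested.

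Ratios of counts within a mouse do not depend on the scaling between mice. *Bcl2* to *Bcl2l1* was 1.12, 1.385 and 1.69 in the HET mice and 0.583, 0.913 and 0.806 in the WT mice. *Bcl2* thus had more reads than *Bcl2l1* in every HET mouse and fewer in every WT mouse. The single libraries, at 1.05 to 2.30 and 0.436 to 0.944, did not overlap either. These ratios are not corrected for length, and *Bcl2* has 9.157 kb of exon beside 4.586 kb for *Bcl2l1*. Per kb of exon, *Bcl2* was below *Bcl2l1* in every mouse of both groups. *Bcl2l1* to *Bcl2l11* was 2.96, 3.55 and 2.68 in HET and 5.915, 7.50 and 6.53 in WT, apart in the mice but overlapping in the libraries. *Bax* to *Bcl2l1* was 3.72 to 7.02 in HET and 2.005 to 3.55 in WT, again apart in the mice but overlapping in the libraries. These 3 ratios share the *Bcl2l1* counts and are not separate evidence. *Bcl2* to *Bax*, *Mcl1* to *Bax*, *Bcl2* to *Bcl2l11*, *Mcl1* to *Bcl2l11* and *Mcl1* to *Bcl2l1* overlapped between the groups.

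**Figure D4:**
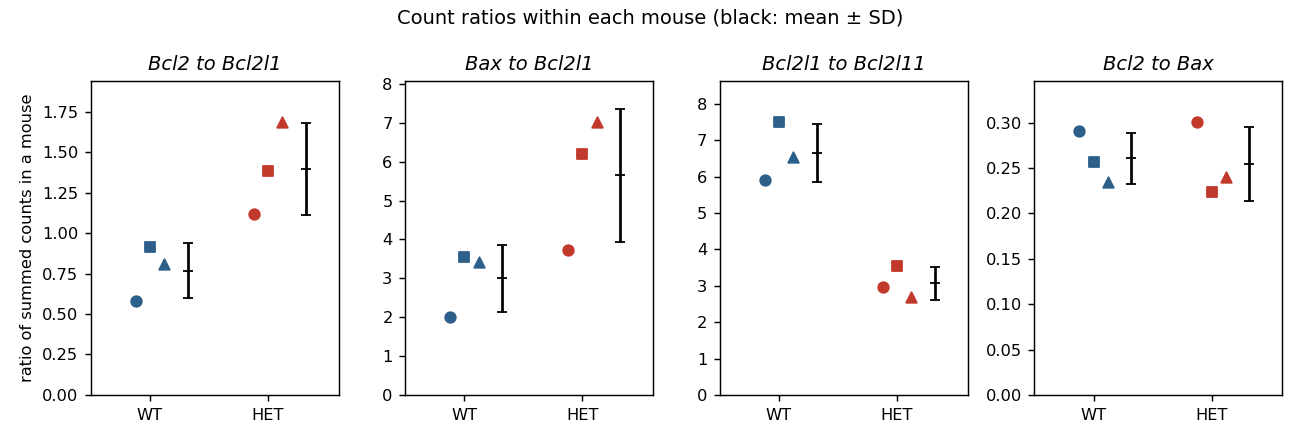
Ratios of summed counts of gene pairs within each mouse (vertical axis, from 0), WT in blue and HET in red, with the mean ± SD of 3 mice in black. The 3 ratios shown that hold *Bcl2l1* separate the groups, and *Bcl2* to *Bax*, at 0.255 in HET and 0.261 in WT on average, does not.

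Of 16 other family genes listed, 13 were in the table and 11 were tested, with 1 called higher, 0 lower and a median log2 fold change of -0.19. The share called was 9.09%, beside 18.0% of all genes tested. *Bmf*, a BH3-only gene whose product is tied to the cytoskeleton, was the one called, at 20, 33 and 14 counts in the HET mice and 4, 1 and 4 in the WT mice. It passed the filter on low counts only through the HET mice, where it is high, so its call and fold are a description of these mice. Its log2 fold change was 2.88 (SE 0.78, 95% interval 1.26 to 4.49, edgeR adjusted p = 0.0124). It was uneven between repeats, since HET mouse 1 had 19 counts in 1 repeat and 1 in the other, and HET mouse 3 had 14 and 0. In repeat 2 the HET libraries had 1, 17 and 0 counts and the WT libraries 4, 0 and 4, which overlap, and with repeat 1 alone the log2 fold change was 5.25. Without HET mouse 2, WT mouse 2 or WT mouse 3 the adjusted p rose above 0.05 (0.0971, 0.0741 and 0.0579 by edgeR), while the log2 fold change stayed at 2.47, 2.49 and 3.02. *Bcl2l2* (BCL-W) had 22, 11 and 19 counts in HET and 0, 10 and 6 in WT (log2 fold change 1.72, SE 0.83, edgeR adjusted p = 0.16). *Bcl2l2* too would not have passed the filter without the HET mice, where it is high, so its fold is a description of these mice. *Bnip3l*, a mitophagy receptor, stood at 46.3 ± 5.86 and 59.7 ± 1.99 CPM (log2 fold change -0.36, SE 0.13, edgeR adjusted p = 0.059). The groups of mice did not overlap for 5 of the 11 genes, *Bmf* and *Bcl2l2* among them, beside 34.4% of all genes tested. The remaining 8 (*Bcl2a1a*, *Bcl2a1d*, *Bad*, *Bik*, *Bcl2l12*, *Bcl2l13*, *Bcl2l14* and *Bnip3*) were not called. Nearest the threshold among them was *Bcl2l12* at -0.37 (SE 0.16, edgeR adjusted p = 0.12).

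The steps after the mitochondria held calls in both directions. Of 21 genes of the caspase cascade and its inhibitors, 2 rose and 4 fell, with a median log2 fold change of -0.05. That is 28.6% called, beside 18.0% of all genes tested, with no test of the difference. *Cycs*, the cytochrome c gene, rose by 0.40 (SE 0.10) on the log2 scale and *Birc6*, an inhibitor of apoptosis, by 0.34 (SE 0.11). *Birc6* was at 0.11 (edgeR adjusted p = 0.528) with GC and length trends removed and at 0.12 (0.654) with repeat 2 alone, and it was called in 10 of 22 alternatives. The outer mitochondrial membrane channel genes *Vdac1* and *Vdac3* fell by 0.70 (SE 0.12) and 0.38 (SE 0.10), and *Casp6*, which encodes a caspase, by 0.58 (SE 0.16). In the death receptor pathway, of 10 genes tested, *Cflar*, the caspase-8 inhibitor, rose by 0.55 (SE 0.12), *Tradd*, a receptor adaptor, fell by 0.40 (SE 0.13) and the median was -0.27, with 20% called beside the 18.0% of all genes. *Tradd* was called in 13 of 22 alternatives.

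Of the listed regulators of MCL1 and BIM 11 genes were tested, of which 3 rose, 0 fell and the median log2 fold change was 0.17. Over all genes tested 9.17% were called higher and 8.82% lower. *Fbxw7*, part of a ubiquitin ligase that targets MCL1, stood at 18.5 ± 0.465 CPM in HET and 9.32 ± 3.10 in WT, a log2 fold change of 0.99 (SE 0.24, edgeR adjusted p = 0.00634). It was called in 18 of 22 alternatives, and not with repeat 1 alone (0.90, adjusted p = 0.134), without WT mouse 3 (0.74, 0.0501) or with log2(TPM + 1) and log2(TPM + 0.1) by limma (0.225 and 0.67, adjusted p = 0.101 and 0.132). *Huwe1*, another MCL1 ligase, rose by 0.45 (SE 0.12) and *Dynll1*, a dynein light chain that binds BIM, by 0.52 (SE 0.11). *Huwe1* was at 0.25 (edgeR adjusted p = 0.135) with GC and length trends removed, and it was called in 14 of 22 alternatives. *Foxo1* and *Foxo3*, which activate *Bcl2l11*, had log2 fold changes of 0.29 and 0.17 and were not called. Of 15 genes of p53 and its targets, 1 rose and 2 fell, with a median of -0.33, and the 20% called was close to the 18.0% of all genes. *Trp53* itself stood at 173 ± 6.46 CPM in HET and 230 ± 3.02 in WT, a log2 fold change of -0.41 (SE 0.09, edgeR adjusted p = 0.00348). With repeat 1 alone *Trp53* was at -0.19 (adjusted p = 0.446), and it was called in 21 of 22 alternatives. *Sesn2*, a stress-response target, fell by 2.16 (SE 0.40). It lay between -2.92 and -0.83 over the 21 alternatives that tested it, and 20 of them called it. *Mdm4*, an inhibitor of p53, rose by 0.51 (SE 0.14) and was called in 17 of 22 alternatives, with adjusted p-values up to 0.168.

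The letters TTCCTNGAA, the core of the motif that BCL6 binds, were searched on both strands of RefSeq promoter windows from 250 bases before to 50 after the start. They were in 0 of 14 windows of the 9 genes matched, beside 1.59% of all 32851 windows. Over the 12 libraries, which share mice and groups, the genes most like *Bcl2* were *Nemp1*, *Ttc7b* and *Ndufb7* (Pearson r of log2 CPM 0.87, 0.868 and 0.851), and those most like *Bcl2l11* were *Gm43328*, *Grb2* and *Clasp1* (0.882, 0.88 and 0.874), given as a description over 12624 genes.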

How the data were processed

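Poly(A) RNA was amplified from about 200 sorted cells per library by an adapted SMART-Seq2 protocol. The authors aligned reads to GRCm38 (mm10) with HISAT2 2.2.1 counted them with HTSeq and deposited the unnormalized counts of 24561 genes and TPM values of 24530 genes. The annotation release, the use of strand and how many donors supplied the cells are not given in the sources used here. Recipients that share a donor would measure only the spread between recipients.

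The technical repeats of each mouse were summed, and 3 HET and 3 WT mice were compared with edgeR 4.0.16 in R 4.3.3 (filterByExpr with a minimum count of 10, TMM normalization, quasi-likelihood test, two-sided, Benjamini-Hochberg adjustment over 12719 genes, threshold 0.05). Each standard error is the size of the log2 fold change divided by the square root of F. Normalized CPM are counts relative to the TMM-scaled library size. Coordinates, exon lengths and coding sequences came from a GENCODE annotation of GRCm38, promoters from RefSeq. The tests were checked on simulated counts.

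The members and the gene lists were chosen with earlier results of these data known. Named were all members, *Bcl6*, every other family gene tested, up to 4 called genes of smallest adjusted p per direction in each further list, *Trp53*, *Foxo1* and *Foxo3*, and the 3 genes most correlated with *Bcl2* and *Bcl2l11*. One gene that this rule names is not reported here. Of 22 alternatives, 19 were planned (DESeq2 1.42.0, limma 3.58.1 voom, TPM with a pseudocount of 1 or 0.1, other scalings and filters, each repeat, each mouse left out, a replicate block, GC and length trends removed with mgcv 1.9.3) and 3, each leaving out 1 library, were added after seeing the data, as was a share by role with all A1 copies.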

Additional observations from a re-analysis of the deposited data

Results flagged for a closer look

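In 4 of 32 groups of 6 libraries examined, 1 library lay farther from the others than Dixon's critical value allows, where chance gives about 1.6. *Bcl2l1* stood at 50.73 CPM in the first repeat of WT mouse 1, beside a median of 26.68 in the other 5 WT libraries. *Mcl1* stood at 134.7 CPM in the first repeat of WT mouse 2, beside a median of 82.19. The same library had *Bcl6* at 100 CPM, beside a median of 56.5, still below every HET library. B cell markers summed to 988.8 CPM in the second repeat of WT mouse 3, beside a median of 621.4. Without that last library *Bcl2l1* had a log2 fold change of -0.80 and stayed called.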

How the results depend on the processing

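The 10 genes had 215 values under the alternatives, of which 195 kept their direction and their side of the threshold. The count of members called lower, 1 in the reported test, was 0 with repeat 1 alone, with log2(TPM + 1), with log2(TPM + 0.1) and without the first library of WT mouse 1, and 0 to 1 when a mouse was left out. With repeat 2 alone it was 1, but the gene was *Bid*. *Bcl2l1* had adjusted p-values from 0.001917 to 0.125, 0.0883 and 0.0846 of them with TPM (limma). The cause was not tested.

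Directions of uncalled genes turned as follows. *Bcl2* was at -0.0008286 and -0.003892 with log2(TPM + 1) and log2(TPM + 0.1). *Mcl1* was at 0.013 with repeat 2 alone and 0.033 without the first library of WT mouse 2, and at -0.18 to 0.03248 when a mouse was left out. *Bcl2a1b* was at -0.17 with repeat 1 alone, -0.01155 with GC and length trends removed and -0.001666 with the replicate block added to that. *Bid* was at 0.19 with repeat 1 alone. *Pmaip1* was at 0.11 without the first library of WT mouse 2 and lay between -0.87 and 0.07396 when a mouse was left out, above 0 without WT mouse 2. *Bcl2a1a* was at -0.37 with voom, -0.05008 and -0.26 with log2(TPM + 1) and log2(TPM + 0.1), -0.05045 with the replicate block, -0.17 with GC and length trends removed, -0.29 with both, -0.10 without the first library of WT mouse 1, and -0.36 to 0.54 when a mouse was left out, below 0 without HET mouse 2 (-0.01766) or 3. When a mouse was left out, *Bcl2a1d* lay between -0.33 and 0.00494 (above 0 without HET mouse 1), *Bik* between -1.15 and 0.22 (without WT mouse 3) and *Bcl2l13* between -0.27 and 0.01388 (without HET mouse 2).

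Over all tested genes, 1166 higher and 1122 lower calls became 547 and 512 with repeat 1 alone, 736 and 710 with repeat 2 alone, and 730 to 965 and 694 to 1007 when a mouse was left out, the fewest without WT mouse 3. With log2(TPM + 1) there were 390 and 915, with log2(TPM + 0.1) 374 and 886 (the median of all genes was then -0.11, beside 0.01), and with upper-quartile scaling 1331 and 957.

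The other family genes had 0 higher with at least 10 counts in every library and with repeat 2 alone, where *Bmf* did not pass the filter and was not tested, 0 with voom, where it was at 2.01, and 0 to 1 when a mouse was left out. They had 1 lower, *Bnip3l*, with DESeq2, at least 10 counts in every library, voom, and the replicate block with or without GC and length trends removed. Caspase cascade genes had 0 higher with repeat 2 alone or either TPM scale, 1 with GC and length trends removed (with or without the block) or any of the 3 libraries left out, and 1 to 2 without a mouse. They had 1 lower with repeat 1 alone, 2 with repeat 2 alone and 1 to 4 without a mouse. Death receptor genes had 0 higher with either TPM scale and 2 without the first library of WT mouse 1. They had 0 lower with repeat 1 alone, with GC and length trends removed (with or without the block) and without the second library of WT mouse 3, 2 without the first library of WT mouse 1 and 0 to 1 without a mouse. MCL1 and BIM regulators had 0 higher with either TPM scale, 1 to 4 without a mouse, and 1 lower with voom and with GC and length trends removed, with or without the block. The p53 list had 2 higher with at least 1 count in any mouse, 0 with repeat 1 alone, either TPM scale or GC and length trends removed, and 0 to 2 without a mouse. It had 0 lower with repeat 1 alone and 4 with voom, with the replicate block and with GC and length trends removed plus the block.

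Whether the mouse numbers pair the samples is not given in the sources used here. Deviations of same-numbered mice correlated at 0.1, -0.0252 and 0.0365, beside -0.102 to 0.0658 for the other pairs, which cannot decide it. With the number as a replicate block, 1292 genes were higher and 1287 lower. *Bcl2l1* was then at -0.75 (SE 0.17, edgeR adjusted p = 0.0037) and stayed called. *Bbc3* and *Pmaip1* had means of 18 and 14.5 counts per mouse, where counting alone gives an SD of 0.34 and 0.379 on the log2 scale, below the SD between mice of 0.862 and 0.512.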
